A study of Mus musculus with 90 samples.

Results

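The acute-phase proteins of the liver and the components of IL-6 and IL-1 signalling were followed through feeding, glucocorticoid treatment, insulin receptor blockade, loss of the glucocorticoid receptor (GR), loss of insulin receptor substrates, and diet-induced obesity. Genes were listed by name with no cut on a measured value, but with earlier results of these data known. The module held 32 of the 24312 gene symbols in the RNA table. It covered 20 secreted or induced acute-phase proteins (Saa1, Saa2, Saa3, Saa4, Orm1, Orm2, Orm3, Hp, Hpx, Lcn2, Cp, Fga, Fgb, Fgg, Apcs, Crp, Itih3, Itih4, Serpina3n and Steap4). Lbp and Lrg1, which are also secreted acute-phase proteins, were listed apart from these. The others were the receptor genes Il1r1, Il6ra, Il6st and Cd14, the receptor antagonist Il1rn, and the signalling genes and inhibitors Stat3, Socs3, Nfkbia, Nfkbiz and Tnfaip3. Among the secreted proteins, Saa and Apcs are amyloid proteins of serum, Orm genes encode orosomucoids, Fga, Fgb and Fgg are the chains of fibrinogen, Crp is C-reactive protein, and Itih3 and Itih4 are inter-alpha-trypsin inhibitor heavy chains. Where a symbol had several RefSeq transcripts, the transcript with the highest mean level was used.

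In the acute-phase response, hepatocytes change the set of proteins they secrete when IL-6 and IL-1 reach the liver. IL-6 binds its receptor Il6ra together with the shared subunit Il6st (gp130) and activates the transcription factor STAT3, and Socs3 is a STAT3 target that shuts the receptor complex down. IL-1 binds Il1r1 and activates NF-kB, the soluble antagonist Il1rn occupies the same receptor without signalling, and Nfkbia encodes the NF-kB inhibitor IkB alpha. Glucocorticoids are known to raise the production of several acute-phase proteins in hepatocytes together with these cytokines, and to raise Nfkbia in many cell types.

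The study trained mice to night-restricted feeding (NRF), in which chow was given in the dark phase only, and took livers in the hours around the start of the night (ZT, zeitgeber time, counts hours from lights on, and food was given at ZT12). The uninjected groups were 10-week-old male C57BL/6N mice taken at ZT10, at ZT14 without food (ZT14-unfed) or at ZT14 with food (ZT14-fed), with 2 livers each after 4 days of NRF. In the injected groups the same strain, NRF schedule and age were used, and mice received PBS vehicle, the synthetic glucocorticoid dexamethasone (dex, 1 mg/kg), the insulin receptor antagonist peptide S961 (44 nM per mouse as the labels word it, 44 nmol/kg in the study's methods) or both, 30 minutes before ZT12. They gave 5 groups of 4 livers at ZT14, an unfed vehicle group and the fed vehicle, fed dex, fed S961 and fed dex + S961 groups. For L-GRKO, adult mice with a homozygous floxed Nr3c1 gene (GR fl/fl, C57BL/6N) received an adeno-associated virus in which the hepatocyte promoter Tbg drove Cre, their controls were GR fl/fl mice given the same vector with GFP, and both groups were taken unfed at ZT14 (4 livers each). For L-IRSdKO, 10-week-old Irs1 fl/fl Irs2 fl/fl mice (C57BL/6J) carrying Alb-Cre were compared with floxed mice without Cre, and all 8 mice received dex at 1 mg/kg and food, so these controls were dex-treated too. In the diet experiment, male mice were given chow or a high-fat diet with 60% of its energy from fat for 10 weeks from 5 weeks of age, then NRF for 4 days, and were taken unfed or fed at ZT14 (3 livers in each of 4 groups). Both Cre drivers act in hepatocytes, so the other liver cells kept the floxed genes. In whole liver, fewer cells of a type and less RNA per cell cannot be told apart.

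Levels are RPKM values of 54 RNA-seq libraries in 16 groups, and the 5 experiments (6, 20, 8, 8 and 12 libraries) were tested separately. Each fit used limma on log2(RPKM + 0.5) over all genes that averaged 0.5 RPKM or more, and a gene was called at a Benjamini-Hochberg adjusted p below 0.05. Refits that leave out a library also change the share of all genes called. A member count from such a refit, given below without that share, is no result about the members alone. Fold changes below are on that log2 scale with the standard error (SE) of the fit, which understates changes of genes near 0. Total read counts were not used here, and the low values put the relative depth of the deepest library at 1.23 to 3.68 times that of the shallowest within an experiment. The hepatocyte markers Alb, Apoa1, Ttr, Apob, Cyp2e1 and Cps1 were high throughout, with a summed level of 30845 to 76787 RPKM outside the L-IRSdKO experiment. In the L-IRSdKO experiment that sum was 2501 to 3125 RPKM, Alb was 650 to 914 RPKM and the 10 highest genes held 1.8 to 2.1% of the total, against 17.7 to 27.6% elsewhere, so no level is compared between experiments. The floxed target Nr3c1 read 12.8, 14.5, 13.2 and 16.2 RPKM in the GR fl/fl controls and 3.93, 4.23, 4.14 and 5.35 in L-GRKO (log2 fold change -1.58 ± 0.12 SE, adjusted p = 6.83e-05). Irs1 read 2.21, 4.7, 4.73 and 4.5 RPKM in its controls and 0.149, 0.155, 0.321 and 0.17 in L-IRSdKO (-2.66 ± 0.25 SE, adjusted p = 9.16e-04), while Irs2 was not called (-0.79, adjusted p = 0.31). Neutrophil markers summed to at most 15.1 RPKM in any library. Some members share reads with close relatives, since 20.4% of the 50-base stretches of Orm1, 21.8% of Orm2, 10.8% of Saa1 and 9.09% of Saa2 occur in another gene, and the split of reads among the Orm genes and between Saa1 and Saa2 is uncertain to that extent.

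GR and FOXO1, the transcription factor that insulin excludes from the nucleus, were mapped by ChIP-seq in unfed ZT14 livers, and most members had peaks of both near their start. A GR peak lay within 50 kb of the transcription start site (TSS) of 30 of 32 members (33.8% of all 19783 placed genes), and so did a FOXO1 peak of 30 of 32 (35.4%). A DNase hypersensitive site (DHS) lay within that distance of all 32 (88.4% of all genes), and 27 had a GR peak that overlapped a FOXO1 peak (19.8%). Il1rn and Il6st were the members without a GR peak, and Steap4 and Nfkbiz those without a FOXO1 peak. Highly expressed genes carry more peaks in general, and of the 486 genes that averaged 100 RPKM or more 86.0% had a GR peak and 82.1% a FOXO1 peak, against 14 of 14 members at that level for each factor. Among the 3792 genes of 10 RPKM or more the shares were 61.0% and 62.6%, against 25 of 26 members for each factor. Close to the TSS, 16 members had a GR peak within 1 kb (3.06% of all genes) and 14 had a FOXO1 peak there (6.6%). The nearest GR peak centres lay 42 bp from the TSS of Tnfaip3, 62 bp from that of Hp, 72 bp from that of Hpx and 96 bp from that of Orm1, and the farthest was 47470 bp from that of Cd14. Members in clusters share peaks, and the 135 pairs of a GR peak and a member came down to 85 distinct peaks, of which 48 overlapped a FOXO1 peak (56.5%, against 48.8% of all 10446 GR peaks) and 65 lay in a DHS (76.5%, against 81.6%). The lists hold positions without a height per sample, so these are counts with no replicate error.

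**Figure D1:**
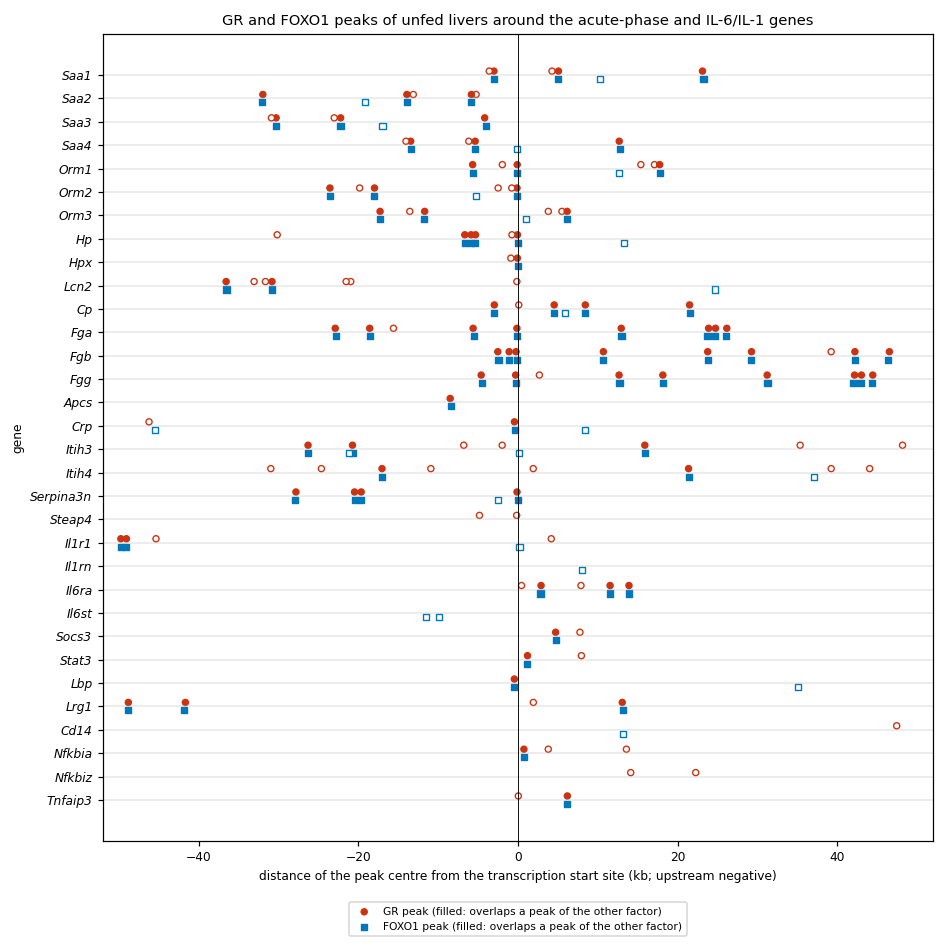
GR peaks (circles) and FOXO1 peaks (squares) of unfed livers by the distance of their centre from the transcription start site of each of the 32 genes, in kb with upstream negative. Filled symbols overlap a peak of the other factor. The fibrinogen genes Fga, Fgb and Fgg carry 9 GR peaks each, and Il1rn and Il6st carry none.

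The sequences under 7 GR peaks are given so that the sites can be read beside the values of Lcn2, Serpina3n, Hp, Il1r1, Il6ra and Nfkbia, which were called with dex, dex + S961 or GR loss, and of Saa1, which was called in no comparison with all mice. They were picked after the values were seen, and because they hold the element, so its presence in them is no finding, and they are not always the peak nearest to the gene. For Il6ra the peak shared with FOXO1 was taken, and another with the element is centred 446 bp from the TSS. Each is 180 bases long, from mm9 and the plus strand, none overlaps an exon, and capitals mark the core of a glucocorticoid response element (ACANNNTGT, searched on both strands). The Lcn2 peak (chr2:32243365-32243544) is centred 138 bp upstream of the TSS between genes and inside a DHS. The Serpina3n peak (chr12:105644728-105644907) is centred 122 bp upstream, inside a DHS and overlapping a FOXO1 peak. The Hp peak (chr8:112103739-112103918) is centred 756 bp upstream outside any DHS, and the Saa1 peak (chr7:54001274-54001453) 3014 bp upstream, in a DHS shared by FOXO1 and within 50 kb of all 4 Saa genes. The Il1r1 peak (chr1:40286009-40286188) lies 4174 bp downstream of the TSS in an intron outside any DHS. The Il6ra peak (chr3:89714100-89714279) lies 2894 bp downstream in an intron, in a DHS and over a FOXO1 peak. The Nfkbia peak (chr12:56589747-56589926) lies 3798 bp downstream of the TSS, past the end of the gene, in a DHS and with 2 cores. In mm9 the genes lie at chr2:32240153-32243317 (Lcn2, minus strand), chr12:105644939-105652539 (Serpina3n, plus), chr8:112099030-112103072 (Hp, minus), chr7:53995871-53998350 (Saa1, minus), chr1:40281925-40373043 (Il1r1, plus), chr3:89673246-89717084 (Il6ra, minus), chr12:56590398-56593634 (Nfkbia, minus) and chr2:24192373-24207014 (Il1rn, plus).
Lcn2 GR peak: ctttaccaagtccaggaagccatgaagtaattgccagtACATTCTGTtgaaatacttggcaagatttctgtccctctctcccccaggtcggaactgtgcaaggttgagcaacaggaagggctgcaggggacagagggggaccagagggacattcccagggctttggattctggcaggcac
Serpina3n GR peak: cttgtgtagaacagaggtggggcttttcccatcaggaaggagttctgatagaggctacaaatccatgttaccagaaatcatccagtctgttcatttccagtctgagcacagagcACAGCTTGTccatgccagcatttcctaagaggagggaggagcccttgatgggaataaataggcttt
Hp GR peak: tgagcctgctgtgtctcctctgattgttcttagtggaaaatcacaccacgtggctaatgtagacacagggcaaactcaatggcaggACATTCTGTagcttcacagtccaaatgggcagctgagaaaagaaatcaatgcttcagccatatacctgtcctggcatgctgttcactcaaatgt
Saa1 GR peak: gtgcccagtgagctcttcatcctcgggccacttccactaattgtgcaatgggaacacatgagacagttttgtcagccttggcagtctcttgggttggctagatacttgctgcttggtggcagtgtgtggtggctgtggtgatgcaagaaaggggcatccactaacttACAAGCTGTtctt
Il1r1 GR peak: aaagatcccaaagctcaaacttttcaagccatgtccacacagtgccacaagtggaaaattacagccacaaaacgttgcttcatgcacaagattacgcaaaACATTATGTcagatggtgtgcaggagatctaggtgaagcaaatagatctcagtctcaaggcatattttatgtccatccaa
Il6ra GR peak: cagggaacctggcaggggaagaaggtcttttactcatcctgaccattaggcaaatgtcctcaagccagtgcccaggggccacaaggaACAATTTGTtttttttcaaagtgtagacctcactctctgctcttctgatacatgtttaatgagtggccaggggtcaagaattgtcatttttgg
Nfkbia GR peak: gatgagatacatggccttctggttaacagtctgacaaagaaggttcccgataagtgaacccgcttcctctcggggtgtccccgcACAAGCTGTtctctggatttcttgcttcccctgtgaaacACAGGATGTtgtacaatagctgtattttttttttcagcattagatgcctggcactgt

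Il1rn had no GR peak but one FOXO1 peak (chr2:24200279-24200458), 7996 bp downstream of the TSS in an intron and inside a DHS, shown because Il1rn rose with S961 and in L-IRSdKO. Capitals mark the FOX element TGTTTAC, which is read here on the minus strand.
Il1rn FOXO1 peak: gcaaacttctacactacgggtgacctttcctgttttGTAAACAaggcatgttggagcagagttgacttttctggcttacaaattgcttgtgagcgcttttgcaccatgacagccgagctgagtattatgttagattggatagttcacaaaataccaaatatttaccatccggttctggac

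The core of the glucocorticoid response element was present in 21 of the 85 GR peaks near members (24.7%, against 20.3% of all GR peaks). The C/EBP element TTGCNNAA was in 40 of them (47.1%, against 31.5%), the STAT element TTCNNNGAA in 10 (11.8%, against 8.9%), and the NF-kB element GGANTTTCC in 4 (4.71%, against 0.785%). In the 64 FOXO1 peaks near members the FOX element was in 10 (15.6%, against 18.8% of all 8546 FOXO1 peaks) and the C/EBP element in 28 (43.8%, against 24.3%). Promoters were read from RefSeq windows of GRCm38.p6 that run from 250 bases before to 50 after a start, which 27 of the members had. Of these, 13 held the C/EBP element (48.1%, against 10.8% of all 32851 windows), 6 the STAT element (Apcs, Fga, Fgb, Steap4, Socs3 and Itih4, 22.2% against 8.3%) and 5 the glucocorticoid core (Lcn2, Fga, Fgb, Orm3 and Serpina3n, 18.5% against 6.85%). The NF-kB element was in the promoter of Nfkbia and in that of Tnfaip3 (7.41%, against 1.25%), and the FOX element in none (3.65% of all windows). A member counted if any of its windows held an element, while the share beside it is per window. Members with several windows therefore raise the member shares, and the units are not alike. The 13 members with the C/EBP element include the clustered genes Saa1, Saa2, Saa3, Saa4, Orm2 and Orm3. All searches covered both strands, and a match is a description of letters in a window, not of a bound site.

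The members span a wide range of levels. In every experiment Hpx, Hp and the fibrinogens, which scavenge heme and haemoglobin and form clots, had the 5 highest means, led by Hpx in the uninjected (1465 RPKM), L-GRKO (2122) and diet (2024) experiments and by Fgb in the injected (2564) and L-IRSdKO (491) experiments. The low end was held by Il1rn, Tnfaip3 and Cd14, with means of 0.251 to 1.27 RPKM outside the L-IRSdKO experiment. Spread between mice of one group differed as widely. The pooled within-group SD on the log2 scale was 0.13 for Cp, the copper-carrying ferroxidase, but 0.88 for Lcn2, 1.09 for Saa1 and 1.23 for Saa2. In groups of 2 to 4 mice Saa1 and Saa2 thus had to differ severalfold to be called. Saa3 (0.61) and Saa4 (0.54) varied less. Saa1 ran from 12.9 to 887 RPKM over all libraries, a range that also holds differences between experiments and groups. The cytokine transcript Il6 itself was at or near 0, with at most 0.481 RPKM in any library. Across 14 comparisons, 34 of the 443 pairs of a tested member and a comparison were called. They fell on 17 members, led by Nfkbia in 5 comparisons and Il6ra in 4, followed by Saa4, Il1rn and Il1r1 in 3 each. The other 15 (Saa1, Saa2, Orm2, Hpx, Cp, Fga, Fgb, Fgg, Crp, Itih3, Itih4, Stat3, Lrg1, Nfkbiz and Tnfaip3) were called in none. Several comparisons share controls: dex, S961, dex + S961 and the meal in vehicle-injected mice all use the fed vehicle group, both uninjected comparisons use ZT14-unfed, and the 4 diet comparisons reuse the same 4 groups.

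**Figure D2:**
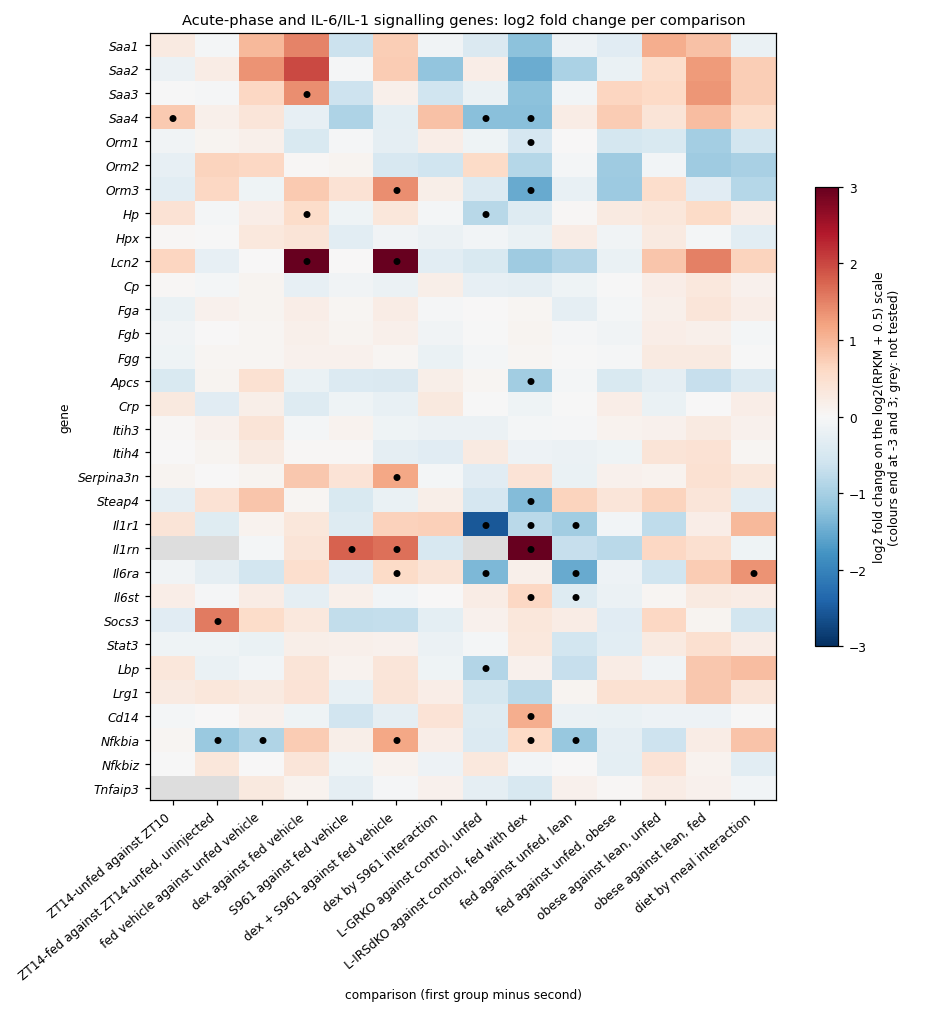
Log2 fold change of the 32 genes (rows) in the 14 comparisons (columns), on a colour scale from -3 to 3, with dots on the changes called at an adjusted p below 0.05 and grey for genes not tested. The acute-phase rows from Saa1 to Steap4 carry no dots under the meal and diet comparisons, and the L-IRSdKO column carries 10, the most of any.

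The shift from ZT10 to ZT14 without food, in which the time of day and the longer fast cannot be told apart, moved 1 of 30 tested members (8.95% of all 10907 genes were called). This was Saa4, the constitutive serum amyloid A of HDL. Saa4 read 61.4 and 62.4 RPKM at ZT10 and 117 and 99.2 at ZT14-unfed. Both later livers were above both earlier ones (0.79 ± 0.10 SE, adjusted p = 0.0093), and the adjusted p was 0.052 without the first ZT10 library, whereas 3 members were called without the first ZT14-unfed library. The median log2 fold change of the members was 0.00, against -0.10 for all genes. Of 26 other genes of the IL-6, IL-1 and NF-kB pathways, the adaptor Myd88 rose (0.46) and the kinases Chuk (-0.46) and Tyk2 (-0.49) fell. Of 5 endothelial markers Lyve1 rose over the same interval (1.46) and the others were at -0.07 to 0.00, and the part of Lyve1-expressing cells was not tested.

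The meal in uninjected mice moved 2 of 30 members (6.77% of all genes were called), and they were 2 inhibitors that moved in opposite directions. Socs3, the feedback inhibitor of IL-6 signalling, read 1.66 and 2.03 RPKM in ZT14-unfed livers and 7.81 and 5.21 in ZT14-fed livers. Both fed livers were above both unfed livers (1.56 ± 0.30 SE, adjusted p = 0.029). Nfkbia read 14.9 and 17.2 RPKM unfed and 6.3 and 8.06 fed, and at ZT10 it had read 16.4 and 14.4. The meal groups of Nfkbia did not overlap (-1.11 ± 0.14 SE, adjusted p = 0.009), and the ZT10 livers lay close to the unfed ones. With 2 mice a group these calls were fragile. Socs3 was lost without any one of the 4 ZT14 livers (adjusted p 0.063 and 0.065 without the unfed ones, 0.12 and 0.11 without the fed ones), and Nfkbia was lost without the first fed liver (0.06). Among 26 other pathway genes the NF-kB cofactor Bcl3 rose (3.94 against 1.28 RPKM, 1.34, adjusted p = 0.024) and Cebpd, a C/EBP factor of the acute-phase response, fell (1.92 against 4.18 RPKM, -0.94, adjusted p = 0.02). None of 13 other positive and 10 negative acute-phase proteins changed.

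In vehicle-injected mice the meal moved 1 of 32 members (3.13% of all 11251 genes), again Nfkbia. It read 18.7, 21, 23.4 and 21.2 RPKM in unfed livers and 8.66, 8.55, 11.7 and 16.9 in fed livers. All fed livers were below all unfed ones, liver 4 least so (-0.90 ± 0.21 SE, adjusted p = 0.027). Il6ra read 38.9, 39.4, 40.1 and 39.5 RPKM unfed and 24.8, 21.7, 30.1 and 32.8 fed. The Il6ra groups did not overlap either, but the adjusted p was 0.056 (-0.54 ± 0.15 SE). Socs3 read 3.04, 3.51, 3.2 and 6.04 RPKM unfed and 2.67, 7.48, 7.48 and 7.26 fed, and the groups overlapped. The libraries of mouse 4 deviated together across the injected groups, with correlations of 0.441 to 0.605 between groups, and what they share was not tested. Within mice 1 to 3 both Nfkbia (-1.10, adjusted p = 0.0025) and Il6ra (-0.63, adjusted p = 0.023) were called. That fit was chosen after seeing the data, and its share of all genes called is not given here, so it adds no independent support. The Nfkbia call was lost when any of the first 3 fed or first 3 unfed vehicle libraries was left out (adjusted p 0.051 to 0.095). Among 25 other pathway genes, Lifr, a receptor that pairs with Il6st, rose (121 against 58 RPKM, 1.03, adjusted p = 0.028). The Kupffer cell markers Adgre1 (0.81), Csf1r (0.76) and Timd4 (0.60) were also higher after the meal, 3 of 9, with a summed level of the list of 119 to 124 RPKM against 79.4 to 87, and their part in the members' values was not tested.

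Dex given before the meal raised 3 of 32 members and lowered none (3.19% of all genes were called). The largest change was in Lcn2, the siderophore-binding protein lipocalin 2. Lcn2 read 14.3, 11.9, 61.6 and 11.8 RPKM in fed vehicle livers and 231, 243, 200 and 112 in dex livers. Every dex liver was above every vehicle liver, including the third vehicle liver, which stood apart from the other vehicle livers (3.29 ± 0.64 SE, adjusted p = 0.007). Saa3 read 9.5, 4.08, 3.5 and 3.1 RPKM with vehicle and 17.5, 12, 12.1 and 10.3 with dex. The groups did not overlap, although the first vehicle liver came close to the lowest dex liver (1.39 ± 0.33 SE, adjusted p = 0.024). Hp, haptoglobin, read 1452, 1628, 1746 and 1590 RPKM with vehicle and 2449, 2525, 2312 and 2049 with dex. All 4 dex livers were higher (0.54 ± 0.14 SE, adjusted p = 0.037).

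Saa1 and Saa2, the major inducible serum amyloids, had non-overlapping groups but were not called. Saa1 read 118, 264, 467 and 258 RPKM with vehicle and 887, 653, 660 and 600 with dex (1.48 ± 0.68 SE, adjusted p = 0.25). Saa2 read 27.2, 128, 181 and 109 RPKM with vehicle and 485, 333, 268 and 377 with dex (1.97 ± 0.76 SE, adjusted p = 0.17). All dex livers were above all vehicle livers for both genes, and the vehicle livers alone ranged severalfold. Nfkbia read 17.6, 15.6, 18.5 and 26.2 RPKM with dex, and vehicle liver 4 lay within that range (0.77 ± 0.21 SE, adjusted p = 0.052). Il6ra read 38, 37.1, 34.3 and 46.2 RPKM with dex, above all vehicle livers (0.51 ± 0.15 SE, adjusted p = 0.072). Serpina3n, a serine protease inhibitor, read 523, 420, 420 and 275 RPKM with dex and 167, 211, 310 and 247 with vehicle, with overlap (0.81 ± 0.29 SE, adjusted p = 0.13). In all, 8 of 32 members had non-overlapping groups (10.5% of all genes), 15 had an unadjusted p below 0.05 (18.5% of all genes), and the median log2 fold change of the members was 0.26, against -0.10 for all genes.

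The dex count depended on the mice used. Within mice 1 to 3 of each group, a fit chosen after seeing the data, 7 members were called (7.28% of all genes in that fit). They now included Nfkbia (0.82, adjusted p = 0.0082) and Il6ra (0.52, adjusted p = 0.046), while Lcn2 was at 3.32 (adjusted p = 0.0093). Lcn2 stayed called without any single library (3.07 to 3.85). The count fell to 1 without vehicle library 2 or 3 or dex library 1 or 2, and rose to 5 without S961 library 3. The shares of all genes called in those fits are not given here, so these counts are no result about the members alone. The Saa3 call was lost without any of vehicle libraries 2 to 4 or dex libraries 1 and 2 (adjusted p 0.059 to 0.095). The Hp call was lost without any of 9 libraries, namely all 4 vehicle libraries, dex libraries 1 to 3 and the first or second unfed vehicle library (adjusted p 0.05 to 0.12). Among the other genes the metallothioneins Mt1 (1484 against 429 RPKM, 1.91, adjusted p = 0.017) and Mt2 (1047 against 259 RPKM, 2.10, adjusted p = 0.012) rose, 2 of 13 positive acute-phase proteins. The kinase Irak2 of the IL-1 pathway fell (-0.96, adjusted p = 0.0059), the only one of 25 signalling genes, and none of 10 negative acute-phase proteins changed. Of 5 endothelial markers Kdr (-0.82) and Clec4g (-0.47) fell, and Stab2 (-0.56), Pecam1 (-0.40) and Lyve1 (0.63) were not called. The Kupffer markers summed to 63 to 116 RPKM with dex, all below the 119 to 124 of fed vehicle livers. Of these 9 markers 0 were called, and 5 had an unadjusted p below 0.05 in limma (18.5% of all genes). Their part in these values was not tested.

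S961 moved 1 of 32 members (1.9% of all genes), the IL-1 receptor antagonist Il1rn. Il1rn read 0.211, 0.324, 0.233 and 0.587 RPKM in fed vehicle livers and 2.39, 2.12, 1.54 and 3.52 in S961 livers. Every S961 liver was above every vehicle liver, from a low starting level (1.76 ± 0.26 SE, adjusted p = 0.0017), and the change was 1.59 to 1.92 without any single library. Saa4 read 499, 543, 633 and 618 RPKM with vehicle and 447, 398, 216 and 214 with S961. The groups did not overlap, but the adjusted p was 0.062 (-0.92 ± 0.24 SE). It passed without dex library 4 (0.033), S961 library 1 (0.02) or unfed vehicle library 4 (0.044), and with Saa4 added the count was then 2. The inducible serum amyloids split within the S961 group. Saa1 read 379, 766, 55.5 and 39 RPKM and Saa2 139, 498, 35.6 and 25.2, so that livers 1 and 2 were high and livers 3 and 4 low for both genes. Lcn2 read 21, 101, 11.5 and 5.23 RPKM in the same livers, with the second again highest. Nfkbia read 9.79, 14.6, 9.54 and 17.4 RPKM, overlapping the fed vehicle livers (0.17 ± 0.21 SE, adjusted p = 0.8). None of the other pathway or acute-phase genes was called with S961. The Kupffer markers Adgre1 (-0.90) and Csf1r (-0.74) were lower, with a summed list of 62 to 95.6 RPKM, and their part in the members' values was not tested.

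Dex and S961 together raised 6 of 32 members and lowered none (10.6% of all genes were called). Lcn2 read 229, 190, 94.9 and 138 RPKM, all above the fed vehicle livers (3.00 ± 0.64 SE, adjusted p = 0.0053). Il1rn read 1.34, 3.65, 1.55 and 2.37 RPKM, also above all vehicle livers (1.65 ± 0.26 SE, adjusted p = 6.53e-04). Lcn2 was in the range of the dex livers or slightly below it, and Il1rn in or near that of the S961 livers. Serpina3n read 735, 572, 390 and 431 RPKM, above all vehicle livers (1.17 ± 0.29 SE, adjusted p = 0.013). Nfkbia read 26.4, 25.2, 21.6 and 27.1 RPKM, above all fed vehicle livers and at or above the upper range of the unfed vehicle livers (1.15 ± 0.21 SE, adjusted p = 0.0019). Il6ra read 36.9, 42.4, 37.8 and 44.7 RPKM, above all vehicle livers (0.57 ± 0.15 SE, adjusted p = 0.021). Orm3, an orosomucoid, read 23.2, 23.2, 8.18 and 17.3 RPKM against 5.3, 3.69, 9.7 and 6.67, and the third livers of the 2 groups overlapped (1.40 ± 0.39 SE, adjusted p = 0.025). Orm3 was lost without vehicle library 1 or 2 or dex + S961 library 1, 2 or 4 (adjusted p 0.057 to 0.093). Il6ra was lost without vehicle library 1 or 2 or dex + S961 library 2 or 4 (0.058 to 0.083). The other called members kept their calls without any single library.

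The difference between the effect of both agents and the sum of their separate effects was tested as an interaction. It was called for 0 of 32 members (0% of all genes, 0 of 11251 with limma), and at an unadjusted p below 0.05 for 1 member, Saa4 (0.88 ± 0.35 SE), and for 513 of all genes (4.56%). For Nfkbia the interaction was 0.21 ± 0.30 SE and for Il6ra 0.39 ± 0.21 SE, each with an adjusted p of 1. Dex + S961 was not compared directly with dex. A call with both agents and not with dex alone does not by itself show that the effects differ, as in Serpina3n, Nfkbia and Il6ra. Among other genes the C/EBP factor Cebpb (1.11, adjusted p = 0.037), Mt1 (1.98) and Mt2 (2.35) rose with both agents, and Pias3 (-0.67), Il1a (-0.79) and the complement factor Cfb (-0.26) fell. The Kupffer markers Vsig4 (-0.72), Adgre1 (-0.65) and Csf1r (-0.63) were lower, with a summed list of 70.6 to 111 RPKM, and their part was not tested.

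**Figure D3:**
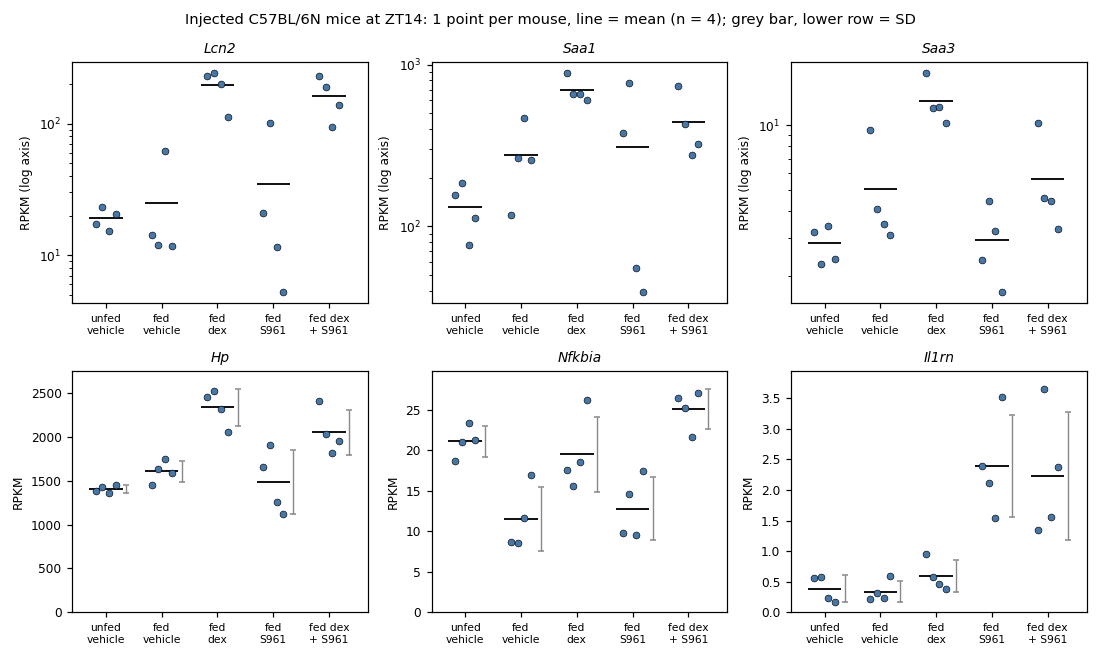
RPKM of Lcn2, Saa1 and Saa3 (log axes, upper row) and Hp, Nfkbia and Il1rn (linear axes from 0, lower row) in the 5 injected groups, with 1 point per mouse, a line at the mean of 4 mice and, in the lower row, a bar for the SD. Lcn2 sits at 112 to 243 RPKM with dex and 94.9 to 229 with dex + S961, and Il1rn is high in both S961 groups.

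Loss of GR in hepatocytes lowered 5 of 31 tested members in unfed livers and raised none (6.68% of all 11649 genes were called). The largest fall was in the IL-1 receptor. Il1r1 read 38.5, 14.3, 14.9 and 17.5 RPKM in controls and 3.46, 3.06, 2.76 and 2.46 in L-GRKO. Even the lowest control was far above the highest knockout, and the first control stood apart above the others (-2.55 ± 0.27 SE, adjusted p = 4.94e-04). The IL-6 receptor Il6ra read 37, 21.1, 26.7 and 24.4 RPKM in controls and 11.9, 10.8, 8.7 and 9.58 in L-GRKO. Its groups were also far apart (-1.35 ± 0.16 SE, adjusted p = 0.0011). Il6st, the signalling subunit, was 28.1 RPKM in controls and 32.7 in L-GRKO on average (0.22 ± 0.12 SE, adjusted p = 0.34). Lbp, which delivers endotoxin to CD14, read 35.6, 26.7, 27.2 and 47 RPKM in controls and 19.5, 14.5, 17.8 and 19.6 in L-GRKO. Saa4 read 379, 172, 251 and 179 RPKM in controls and 83.4, 100, 101 and 105 in L-GRKO. Hp read 1845, 1238, 1416 and 1725 RPKM in controls and 835, 760, 856 and 1023 in L-GRKO. In each of Lbp (-0.89 ± 0.18 SE, adjusted p = 0.014), Saa4 (-1.26 ± 0.22 SE, adjusted p = 0.0074) and Hp (-0.83 ± 0.15 SE, adjusted p = 0.0078) all knockouts were below all controls.

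The 5 L-GRKO calls held when any single library was left out. The fold change stayed between -2.69 and -2.23 for Il1r1 and between -1.46 and -1.2 for Il6ra. Of the 3 members called with dex, Hp was called here and the other two were not. Lcn2 was 2.57 RPKM in controls and 1.73 in L-GRKO (-0.46 ± 0.34 SE, adjusted p = 0.51), and Saa3 3.92 and 3.34 (-0.21 ± 0.16 SE, adjusted p = 0.51). Nfkbia read 32.6, 27.8, 25.5 and 25.3 RPKM in controls and 20.9, 20.3, 27.1 and 15.8 in L-GRKO, with overlap (-0.41 ± 0.15 SE, adjusted p = 0.15). Lrg1, a leucine-rich glycoprotein, read 207, 141, 173 and 213 RPKM against 116, 141, 138 and 113 (-0.52 ± 0.14 SE, adjusted p = 0.053). The fibrinogens, Hpx, Crp and Stat3 had log2 fold changes of -0.08 to 0.02 and were not called. The median log2 fold change of the members was -0.21, against 0.08 for all genes, and scaling the libraries to a common median ratio gave a count of 9 (5.69% of all genes). Of 26 other signalling genes Cebpd (1.2 against 3.39 RPKM, -1.19, adjusted p = 0.014) and Cebpb (20 against 31.4 RPKM, -0.65, adjusted p = 0.038) fell and Chuk rose (0.39). The corticosteroid-binding globulin Serpina6 (320 against 123 RPKM, 1.44, adjusted p = 0.024) and Itih2 (0.40) rose, 2 of 10 negative acute-phase proteins, and none of 13 positive ones changed. No Kupffer marker was called, with summed levels of 93.7 to 196 RPKM in controls and 98.7 to 170 in L-GRKO, and the stellate marker Lrat rose (0.47). Of 6 hepatocyte markers the enzyme Cps1 fell (-0.90), and the others, from Apoa1 (-0.46) to Ttr (0.23), were not called. The part of cell composition was not tested.

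Loss of Irs1 and Irs2 from hepatocytes in fed, dex-treated mice moved 10 of 32 members, 4 up and 6 down (17.4% of all 12966 genes were called). The first L-IRSdKO liver stood apart from the other knockouts in 6 members by Dixon's gap criterion (Saa3, Cp, Apcs, Steap4, Il6ra and Stat3), and values without it are given after the called members. The largest change was again in Il1rn. Il1rn read 0.228, 0.76, 1.13 and 0.827 RPKM in controls and 5.67, 32.6, 37.9 and 24.7 in L-IRSdKO. All knockouts were above all controls, the first much less so (4.15 ± 0.54 SE, adjusted p = 0.0033, and 4.74 without it). Cd14, the endotoxin co-receptor, read 5.45, 5.66, 6.54 and 8.09 RPKM in controls and 11.8, 14.1, 18.2 and 13.1 in L-IRSdKO. Il6st read 38.7, 37.5, 47 and 35.6 RPKM in controls and 53.2, 61.9, 61.8 and 66.9 in L-IRSdKO. Nfkbia read 60.1, 50.8, 38.8 and 50.7 RPKM in controls and 67, 77.3, 81.4 and 75.2 in L-IRSdKO. For Cd14 (1.09 ± 0.16 SE, adjusted p = 0.0047), Il6st (0.61 ± 0.10 SE, adjusted p = 0.0071) and Nfkbia (0.59 ± 0.13 SE, adjusted p = 0.015) all knockouts were above all controls.

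Of the 6 members that fell in L-IRSdKO, 5 belong to the acute-phase group above and 1 is a receptor. Orm3 read 56.5, 48, 49.5 and 35.7 RPKM in controls and 11, 15.4, 24.8 and 15.4 in L-IRSdKO, with no overlap (-1.52 ± 0.23 SE, adjusted p = 0.0048). Steap4, a metalloreductase of the inflammatory response, read 173, 82.9, 164 and 107 RPKM in controls and 113, 40.3, 44.9 and 32.9 in L-IRSdKO. The first knockout lay among the controls and the other knockouts below them (-1.30 ± 0.38 SE, adjusted p = 0.047). Saa4 read 484, 447, 470 and 428 RPKM in controls and 439, 156, 195 and 102 in L-IRSdKO, with the same arrangement (-1.25 ± 0.36 SE, adjusted p = 0.045). Apcs, serum amyloid P, read 117, 134, 120 and 189 RPKM in controls and 116, 53.5, 59.9 and 52.6 in L-IRSdKO. The first knockout was just below the lowest control (-1.04 ± 0.26 SE, adjusted p = 0.026). Il1r1 read 99.4, 84.7, 94.8 and 83.5 RPKM in controls and 35.5, 55.5, 64.1 and 54.8 in L-IRSdKO, with no overlap (-0.81 ± 0.16 SE, adjusted p = 0.013). Orm1 was at 244 to 292 RPKM in controls and 160 to 202 in L-IRSdKO (-0.51 ± 0.09 SE, adjusted p = 0.0095).

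Without the first knockout 18 members were called (23.3% of all genes in that fit). The members called with all mice were then at -1.65 (Saa4), -1.68 (Steap4), -1.30 (Apcs), -1.35 (Orm3), -0.55 (Orm1), 1.18 (Cd14), 0.68 (Il6st), 0.65 (Nfkbia) and -0.64 (Il1r1). Added ones included Lcn2, which read 191, 231, 158 and 195 RPKM in controls and 227, 64.6, 96.3 and 48.4 in L-IRSdKO (-1.07 with all mice, adjusted p = 0.1, and -1.51 without the first, adjusted p = 0.0019). Saa1 read 298, 385, 350 and 241 RPKM in controls and 304, 105, 168 and 60.6 in L-IRSdKO (-1.22, adjusted p = 0.078, and -1.61 without the first, adjusted p = 0.007). Lrg1 read 255, 280, 252 and 294 RPKM against 279, 123, 149 and 107 (-0.82, adjusted p = 0.057, and -1.11, adjusted p = 3.35e-04). In these genes the first knockout sat with the controls and the other knockouts below them. By contrast Saa4 was lost without any library except that one (adjusted p 0.086 to 0.12 over the other 7). Steap4 was lost without control library 1, 3 or 4 or knockout library 2, 3 or 4 (0.079 to 0.12), and Apcs without control library 2 or 4 or knockout library 2, 3 or 4 (0.056 to 0.077). Log2 fold changes were 0.07 to 0.08 for the fibrinogens, 0.15 for Il6ra and 0.31 for Stat3 (adjusted p = 0.076), and none was called. The highest genes held an unusually small share of the total in this experiment. Whether that affects the fold changes of abundant members such as the fibrinogens and Orm1 was not tested.

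Other pathway genes in L-IRSdKO moved in both directions. Of 28 signalling genes the kinase Map3k8 rose (0.90) and Ikbkb (-0.66), Il1rap (-0.55), Bcl3 (-0.49) and Myd88 (-0.43) fell. Of 13 positive acute-phase proteins Fn1 rose (0.26) and Serpina1c (-0.68), C4b (-0.36), Cfb (-0.24) and Serping1 (-0.23) fell. Of 10 negative ones Serpina6 (0.62), Itih2 (0.19) and Ahsg (0.18) rose and Ttr fell (-0.45). Markers of other liver cells were higher in the knockouts, with Timd4 (0.64), Clec4f (0.46) and C1qa (0.44) of 9 Kupffer markers and Lyve1 (1.47), Pecam1 (0.65) and Stab2 (0.48) of 5 endothelial markers and Dcn (0.28) of the stellate markers called. The Kupffer list summed to 391 to 459 RPKM in L-IRSdKO and 238 to 401 in controls. Cd14 and Il1rn are also expressed by macrophages, and the part of these cells was not tested.

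**Figure D4:**
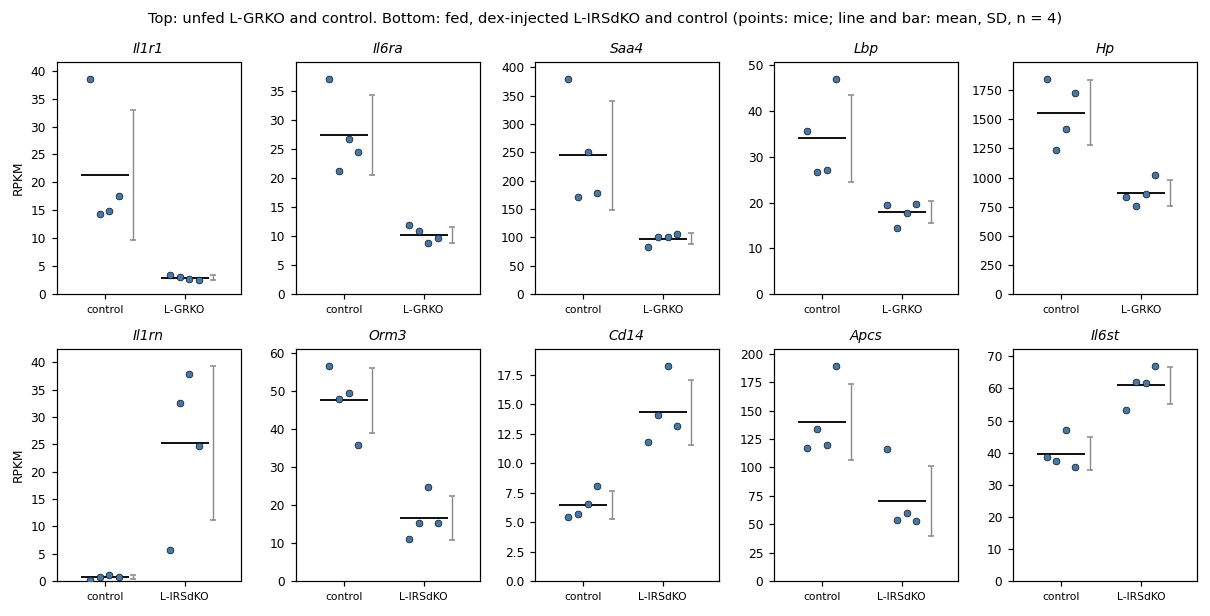
RPKM of Il1r1, Il6ra, Saa4, Lbp and Hp in unfed L-GRKO and control livers (upper row) and of Il1rn, Orm3, Cd14, Apcs and Il6st in fed, dex-treated L-IRSdKO and control livers (lower row). Points are mice, lines and bars the mean and SD of 4. Il1r1 is at 2.46 to 3.46 RPKM in L-GRKO, and Il1rn at 5.67 to 37.9 RPKM in L-IRSdKO.

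In lean mice of the diet experiment the meal lowered 4 of 32 members and raised none (23.4% of all 11434 genes were called), namely Il6ra, Nfkbia, Il1r1 and Il6st. Il6ra read 34.5, 34.8 and 32.6 RPKM unfed and 13.5, 9.88 and 11.7 fed. All fed livers were far below all unfed livers (-1.51 ± 0.17 SE, adjusted p = 3.66e-04). Nfkbia read 30.7, 33.5 and 32.7 RPKM unfed and 12.9, 17.2 and 13.8 fed, with the same separation (-1.13 ± 0.17 SE, adjusted p = 0.0013). Il1r1 read 23.3, 21.1 and 27.9 RPKM unfed and 11.3, 15.5 and 8.13 fed, without overlap (-1.05 ± 0.27 SE, adjusted p = 0.018). Il6st read 25.4, 26.8 and 29.1 RPKM unfed and 19.5, 22.2 and 19.8 fed, without overlap (-0.39 ± 0.10 SE, adjusted p = 0.018). The Il1r1 call was lost without lean unfed library 3 (0.062) or lean fed library 3 (0.068), and the Il6st call without lean unfed library 3 (0.067) or lean fed library 1 (0.065) or 3 (0.06). Left-out libraries moved the count from 2, without lean unfed library 3 or lean fed library 3, to 8, without the first obese unfed library, which shares the fit (28.2% of all genes). Among 25 signalling genes Cebpb (15.2 against 56.6 RPKM, -1.88, adjusted p = 1.38e-04), Cebpd (1.63 against 5.04 RPKM, -1.38, adjusted p = 0.0011) and Chuk (-0.33) fell and Bcl3 rose (1.37). Mt1 (-2.19), Mt2 (-3.50) and Fn1 (-0.43) fell and Hamp, the iron hormone hepcidin, rose (0.92), 4 of 13 positive acute-phase proteins. The endothelial markers Stab2 (-0.62), Kdr (-0.47), Clec4g (-0.41) and Pecam1 (-0.33) and the stellate marker Reln (-0.54) were lower after the meal, no Kupffer marker was called, and the part of these cells was not tested.

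In obese mice the meal moved 0 of 32 members with limma (7.65% of all genes were called), with 3 at an unadjusted p below 0.05 (25.2% of all genes). Il6ra read 20.5, 29.2 and 18.3 RPKM unfed and 23.7, 18.7 and 17.7 fed, and the groups overlapped (-0.16 ± 0.17 SE, adjusted p = 0.61, and 0.03 without the second unfed liver). Nfkbia read 26, 16.5 and 21 RPKM unfed and 20.7, 15.7 and 15.5 fed, also with overlap (-0.27 ± 0.17 SE, adjusted p = 0.34). Il1r1 read 9.45, 14.6 and 18.9 RPKM unfed and 17.2, 11.7 and 11 fed (-0.08, adjusted p = 0.89). Of the signalling genes Cebpb (15.2 against 23.6 RPKM, -0.61, adjusted p = 0.03), Jak2 (-0.39) and Chuk (-0.30) fell and Irak2 (0.83) and Il1rap (0.32) rose. Without the first obese unfed library the member count was 1.

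The difference between the meal's effect in obese and in lean mice was tested as an interaction, which 1 of 32 members passed (0.743% of all genes). It was Il6ra, whose fall in lean mice was larger than its change in obese mice by 1.35 ± 0.24 SE (adjusted p = 0.033). The estimate stayed between 1.21 and 1.54 without any single library, but the adjusted p was 0.05 to 0.088 without any one of 9 of the 12, namely without the third obese unfed library or any lean unfed, obese fed, or lean fed library 2 or 3, and 2 members were called without the first obese unfed library. For Nfkbia (0.85 ± 0.23 SE, adjusted p = 0.13) and Il1r1 (0.98 ± 0.38 SE, adjusted p = 0.27) the difference was not called. Of the C/EBP factors Cebpb (1.27, adjusted p = 0.022) and Cebpd (1.51, adjusted p = 0.037) passed the same test.

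Obese against lean, 0 of 32 members were called with limma unfed (5.22% of all genes) and 0 fed (0.499%), with 6 and 13 at an unadjusted p below 0.05 (22.9% and 20% of all genes). Unfed, Il6ra (-0.60 ± 0.17 SE, adjusted p = 0.067), Nfkbia (-0.62 ± 0.17 SE, adjusted p = 0.055) and Il1r1 (-0.77 ± 0.27 SE, adjusted p = 0.12) each had all 3 obese livers below all 3 lean ones. Leaving out the first obese unfed library gave 6 calls (11.7% of all genes), with Nfkbia at -0.78 (adjusted p = 0.013), leaving out the second gave 1, Il6ra at -0.79 (0.023), and leaving out the second lean unfed library also gave 1. Fed, 19 of 32 members had non-overlapping groups (32.6% of all genes), among them Il6ra, higher in obese livers (0.75 ± 0.17 SE, adjusted p = 0.074), and Orm1, which read 678, 880 and 845 RPKM in lean and 286, 455 and 470 in obese livers (-1.01 ± 0.23 SE, adjusted p = 0.074). Without the first obese unfed library 5 members were called between the fed groups (5.31% of all genes), and without the second 1. Fitting the fed groups alone gave 8 (6.32% of all genes), and the fed median member was 0.30 higher in obese livers, against 0.01 for all genes. Lcn2 was 14.5 RPKM in obese fed and 4.75 in lean fed livers on average (adjusted p = 0.23). Unfed, Cebpb (23.6 against 56.6 RPKM, -1.25, adjusted p = 0.0027) and Cebpd (1.45 against 5.04 RPKM, -1.49, adjusted p = 0.0034) were lower in obese livers and Pias3 was higher (0.63). The endothelial markers Lyve1 (-1.04), Clec4g (-0.78), Kdr (-0.54) and Pecam1 (-0.47) were lower in obese unfed livers. The 4 adipocyte markers summed to 0.03, 0.76 and 27.5 RPKM there, with Plin1 and Lep at 0 in every library, so the sum rests on the other markers. In lean unfed livers they summed to at most 0.155 RPKM, with Adipoq, Plin1 and Lep at 0. The part of these cells was not tested.

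**Figure D5:**
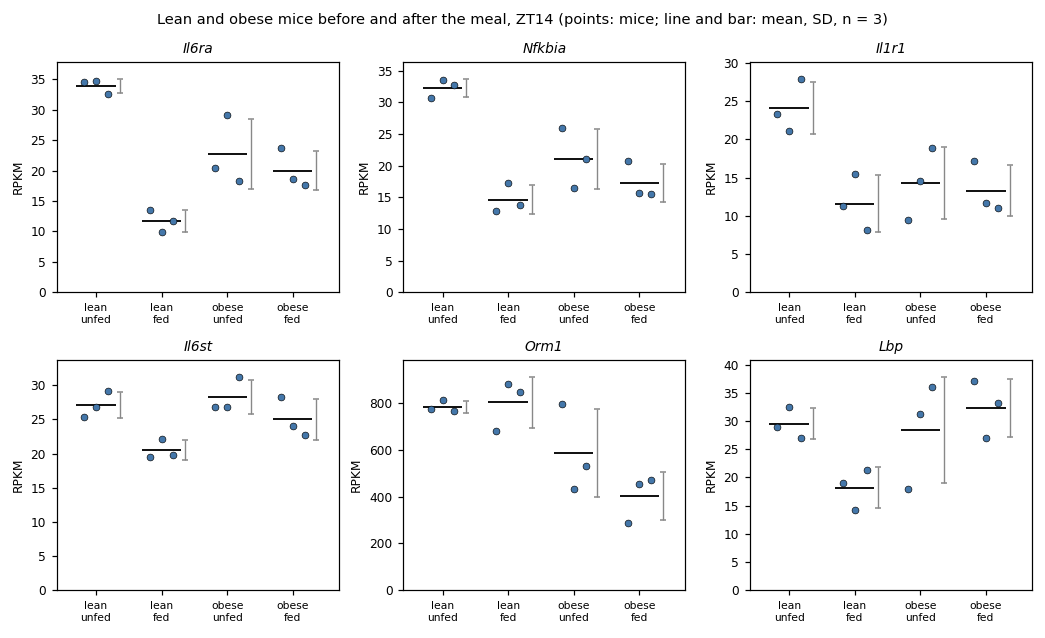
RPKM of Il6ra, Nfkbia, Il1r1, Il6st, Orm1 and Lbp in lean and obese mice, unfed and fed at ZT14, on axes from 0 with points for mice and lines and bars for the mean and SD of 3. Il6ra falls from 32.6 to 34.8 RPKM to 9.88 to 13.5 RPKM in lean mice, and the obese groups overlap.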

How the data were processed

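RNA-seq was made from poly(A) RNA or, for the uninjected groups, ribosome-depleted RNA, and 54 libraries of the 90 samples were used. The authors deposited 1 RPKM table of all 5 experiments (reads per kilobase of transcript, scaled to the mapped reads of a library, 35707 RefSeq transcripts, 300 of them without a symbol and left out here) and, per the labels, used STAR, HOMER and DESeq2 with mm9, versions not given in the sources used here. The authors' GR and FOXO1 peak lists and DHS list hold positions only, with peaks kept where both replicates of unfed liver overlapped, and DHSs called on combined fed and unfed reads. Histone acetylation and other tracks were not used here.

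The members and all gene lists were chosen with earlier results of these data known. RPKM values were tested with limma 3.58.1 in R 4.3.3 (mean-variance trend) on log2(RPKM + 0.5), per experiment, over genes averaging 0.5 RPKM or more, with Benjamini-Hochberg adjustment over all genes. Groups alone entered the model. Interaction terms were taken from the same fits. The table holds no counts, so a count model was not run, counting error was not estimated, and depth is given only relative to other libraries. Nothing in the labels says that livers of a group came from separate cohorts, so p-values measure the spread between these mice. The number of libraries limits precision. In simulated data with these libraries' means and spreads the test recovered 81 to 87% of changes of 1 and 94 to 100% of changes of 2 on the log2 scale. The simulation used independent noise, changed genes above the lowest levels, and a single comparison per experiment, for the injected mice the vehicle meal. Those shares are averages over such genes. They do not cover the other comparisons or members with a wide spread such as Saa1 and Saa2, so a member not called may still have changed.

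Values in every liver are given for up to 8 called members per comparison with the largest change, and other genes by counts and values. Peaks were assigned to every TSS within 50 kb on mm9, with sequence read from the NCBIM37 genome. Promoters of Orm1, Hp, Cd14, Lbp and Nfkbiz were not used here. Alternatives were another pseudocount (0.1 or 1), no filter or a mean of 2 RPKM, median-ratio or quantile scaling, the compared groups alone and each library left out. Others were a replicate block, a term that set replicate 4 of the injected groups apart, and 20 or 100 kb. The fit of mice 1 to 3 alone was chosen after seeing the data. Tables were made with Python 3.11.15, pandas 2.3.3 and numpy 2.4.6.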

Additional observations from a re-analysis of the deposited data

Results flagged for a closer look

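Within groups of 4 livers, 24 of 288 combinations of a member and a group held 1 liver that stood apart from the others by Dixon's 95% gap criterion, which chance alone meets in about 1 of 20 groups.

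In L-IRSdKO the first liver did so for Saa3 (38.4 RPKM, others 8.88 to 13.7), Apcs (116, others 52.6 to 59.9), Steap4 (113, others 32.9 to 44.9), Cp (121, others 153 to 157), Il6ra (76, others 66.7 to 68.1) and Stat3 (70.4, others 60.9 to 61.2). In L-GRKO the first liver was high for Saa1 (38.8 RPKM, others 15.7 to 18.7), Orm2 (38.7, others 14.6 to 17.7) and Itih4 (565, others 408 to 420). In the GR fl/fl controls the second liver was high for Saa2 (14.3 RPKM, others 7.6 to 8.69) and Saa3 (4.92, others 3.49 to 3.67), and the first for Il1r1 (38.5, others 14.3 to 17.5).

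Among the fed vehicle livers the first was high for Saa3 (9.5 RPKM, others 3.1 to 4.08) and low for Socs3 (2.67, others 7.26 to 7.48), and the third was high for Lcn2 (61.6, others 11.8 to 14.3). In unfed vehicle livers the fourth was high for Socs3 (6.04 RPKM, others 3.04 to 3.51) and Crp (188, others 174 to 176). In dex livers the fourth was high for Saa4 (743 RPKM, others 394 to 437) and Orm1 (699, others 480 to 501), and the third for Il6st (31.5, others 27.9 to 28.2). In S961 livers the second was high for Lcn2 (101 RPKM, others 5.23 to 21), the fourth low for Apcs (18.5, others 44.7 to 49) and the first low for Nfkbiz (2.69, others 3.95 to 4.16). In dex + S961 livers the fourth was low for Fgg (1628 RPKM, others 2046 to 2118).

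The effect of the meal on Il6ra differed between obese and lean mice by 1.35 on the log2 scale in the limma interaction test, from -1.51 in lean to -0.16 in obese mice.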

How the results depend on the processing

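Of the refitted values of single genes, 1081 kept their direction and side of the threshold, 85 lost and 48 gained a call, and 1 turned direction, Il6ra after the meal in obese mice at 0.03 without the second obese unfed library (from -0.30 to 0.03 over all left-out libraries). Lcn2 with dex, Il1rn with S961, Lcn2, Serpina3n, Il1rn and Nfkbia with dex + S961, Il1r1, Il6ra, Saa4 and Hp in L-GRKO, Orm1, Orm3, Il1r1, Il1rn, Il6st and Cd14 in L-IRSdKO, and Il6ra and Nfkbia after the lean meal were called under every alternative that tested them and with every library left out. The share of all genes called also moved between fits. It went from 3.19% to 7.28% for dex in mice 1 to 3 and from 0.499% to 6.32% for obese against lean fed with those groups alone. For L-GRKO it went from 6.68% to 5.69% with median-ratio scaling. A member count given here or above without such a share is therefore no result about the members alone. Counts of members called moved more than 1.5 times as follows, and the cause was not tested. Median-ratio scaling gave 2 for ZT14-unfed against ZT10, 2 for the vehicle meal, 9 for L-GRKO and 2 for obese against lean unfed. Quantile normalization gave 1 for the uninjected meal, 2 for S961 and 8 for L-GRKO. With no filter the uninjected meal and the diet interaction gave 0, and with a filter at 2 RPKM, where Il1rn was not tested, S961 gave 0. Fitting the compared groups alone gave 0 for the vehicle meal, 1 for dex and 8 for obese against lean fed. A term that set replicate 4 of the injected groups apart gave 2 for the vehicle meal, 6 for dex and 2 for S961. The labels do not say that those libraries were made apart from the others. Mice 1 to 3 gave 2 and 7 for the vehicle meal and dex. Scaling moved the all-gene median by over 0.1, from 0.12 (uninjected meal) and -0.14 (dex + S961) to 0.

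The labels do not say what replicate numbers share. In none of the comparisons tested did every same-numbered pair correlate above 0.1. In the injected groups number 4 correlated at 0.441 to 0.605 and numbers 1 to 3 at -0.12 to 0.316, where dex with dex + S961 (0.108 to 0.443) and S961 with dex + S961 (0.113 to 0.594), which are compared only within the interaction, were above 0.1 throughout, and elsewhere it was -0.201 to 0.215. With a replicate block the counts were 1 (uninjected meal), 2 (vehicle meal), 6 (dex), 2 (S961) and 0 (diet interaction), and those of the other comparisons moved less. Without replicate (each library left out in turn) the counts ran from 0 to 3 for ZT14-unfed against ZT10, 0 to 2 for both the uninjected and the vehicle meal, 1 to 5 for dex, 1 to 2 for S961, 4 to 7 for dex + S961, 0 for their interaction, 5 to 6 for L-GRKO, 7 to 18 for L-IRSdKO, 2 to 8 for the lean meal, 0 to 1 for the obese meal, 0 to 6 and 0 to 5 for obese against lean unfed and fed, and 0 to 2 for the diet interaction. In the uninjected groups a left-out library leaves 1 mouse, which is assumed to vary like the other groups. Peak counts moved little, to 29 and 31 members with a GR peak at 20 and 100 kb (19.1% and 49.9% of all genes).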
